A study of Mus musculus with 6 samples.

Results

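The 32 genes described here encode the nuclear pore complex and the Ran cycle that drives transport through it. They were chosen by name: 9 members of the outer ring, 5 of the inner ring, 4 of the membrane layer, 3 of the central channel, 5 of the cytoplasmic face, 3 of the nuclear basket and 3 of the Ran cycle. Expression was deposited as FPKM, a level scaled to length and library size. Values were given for single events (a first exon, a last exon, a skipped exon, a retained intron) rather than for genes. Different events of a gene can hold the same value, as the first and last exon of Pom121 did in every DHT library. An event's value therefore need not rest on reads at that event alone. Of the 32 genes, 28 carried at least 1 such event, with 552 of the 315379 events in the series. They hosted 22 of its 11895 circular RNAs (circRNAs), closed RNA rings recognised by reads across a back-splice junction. Nup62, Nup93, Nup133 and Ranbp1 carried no event under their own identifier and have no FPKM value here.

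The libraries came from male C57BL/6 mice, 14 months old and healthy by the labels, with 3 libraries in each group. Mice of the DHT group received dihydrotestosterone under the skin every morning over 14 days, and control mice received corn oil on the same schedule. The labels give no dose and do not state that each library is 1 animal, so p-values here reflect only how far the libraries scatter, part of which may be technical.

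The nuclear pore is a ring-shaped channel in the nuclear envelope through which all regulated traffic between nucleus and cytoplasm passes. Outer and inner rings form its scaffold, membrane proteins anchor it, and proteins rich in phenylalanine-glycine repeats fill the channel and bind transport receptors. The small GTPase Ran gives transport its direction. In neurons, which do not divide, scaffold nucleoporins are known to be very long-lived. DHT is an androgen that acts through the androgen receptor, a transcription factor.

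The libraries held 43512 to 55325 back-splice junction reads, and the deposited scores correspond to 143 to 177 M (mega) mapped reads. Over all 11368 genes tested, 63.6% had a log2 fold change above 0 in DHT, with a median of 0.07. After each library was centred on its median this share was 51.4%. Among markers of the labelled tissue, 3 of 8 hippocampal genes had a mean over 5 FPKM. Neurod6 was listed at 0 in 5 of 6 libraries and Spink8 stayed between 0.131 and 0.493 FPKM. Of 9 striatal genes, 8 had a mean over 5 FPKM and Drd1 was listed at 0 throughout. The summed striatal level spanned 185 to 349 FPKM in DHT and 266 to 297 FPKM in oil, and the summed hippocampal level 21.0 to 43.4 and 25.5 to 40.3 FPKM. Both ranges overlapped between the groups, and their part in the results below was not tested. In whole tissue, fewer cells of a type and less RNA per cell cannot be told apart.

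Sequences before the upstream starts are shown for Nup98, the member called below, and Nup214, whose internal first-exon share did not overlap between the groups. The differences described below lie mainly at internal first exons of both genes, whose sequences were not used here. They are taken from RefSeq (GRCm38.p6) and run 5′ to 3′ on the gene's strand, up to the base before the start. Capitals mark a CCAAT box (CCAAT) or a GC box (GGGCGG) on either strand. The first Nup98 window lies at chr7:102210167-102210416 on the minus strand, and the second at chr7:102209868-102210017, in the intron after the first exon of the longer form. The Nup214 window lies at chr2:31974200-31974449 on the plus strand.
Nup98 first start: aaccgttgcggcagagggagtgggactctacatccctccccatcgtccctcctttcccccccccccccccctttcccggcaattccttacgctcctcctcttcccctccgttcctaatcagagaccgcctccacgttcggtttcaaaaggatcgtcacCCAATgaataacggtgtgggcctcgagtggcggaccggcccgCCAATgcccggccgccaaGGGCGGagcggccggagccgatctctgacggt
Nup98 second start: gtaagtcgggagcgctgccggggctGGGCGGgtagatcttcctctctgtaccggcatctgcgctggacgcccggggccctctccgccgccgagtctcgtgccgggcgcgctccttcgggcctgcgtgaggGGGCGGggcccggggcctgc
Nup214 start: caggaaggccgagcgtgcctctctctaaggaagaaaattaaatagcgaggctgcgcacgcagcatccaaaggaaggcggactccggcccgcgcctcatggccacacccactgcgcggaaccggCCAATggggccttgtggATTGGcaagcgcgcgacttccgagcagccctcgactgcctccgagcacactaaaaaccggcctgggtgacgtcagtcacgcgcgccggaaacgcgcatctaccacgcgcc

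Of the 32 genes, 28 had a promoter in the RefSeq table, in 31 windows, and motifs were searched on both strands in the 250 bases before the start. The motif list was chosen after values were seen. A GC box was present in 61.3% of the 31 windows and in 32.7% of all 32851. An ETS motif (CCGGAAG) was present in 22.6% against 6.91%, an NRF1 motif (GCGCA followed directly by its reverse complement) in 12.9% against 0.782%, and a CCAAT box in 38.7% against 33.8%. A TATA box (TATAAA) was found in 9.68% against 12.4%, and an E2F motif (TTTGGCGC) in 0 of 31 windows against 0.417% of all. The androgen half-site TGTTCT was found in 6.45% of member windows, those of Nup107 and Nup153, against 16.1% of all. The full androgen element (AGAACA, any 3 bases, then TGTTCT), which contains the half-site, was found in 0 of 31 windows and in 0.00913% of all. These matches describe letters in a window and do not locate a bound site.

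For each gene and library, first-exon FPKM and last-exon FPKM were summed, and the larger sum served as the gene value. It was compared with limma on log2(FPKM + 0.5), a scale that understates changes of low genes, with Benjamini-Hochberg adjustment over 11368 genes that had a mean of at least 0.5 FPKM. Of the 28 members with events, 27 passed this filter. Nup160, a scaffold subunit of the outer ring, did not, at 0.132 ± 0.0745 FPKM in DHT and 0.108 ± 0.0810 in oil (SD, n = 3 each). One member, Nup98, passed the test at an adjusted p under 0.05, against 0.0176% of all genes. At an unadjusted p under 0.05 there were 3 members higher in DHT, against 5.79% of all genes, and 1 lower, against 1.55% (4 of 27 in either direction, against 7.34%). After each library was centred on its median, 2 members had an unadjusted p under 0.05, against 6.03% of all genes. The median log2 fold change of the 27 was 0.01, with 15 above and 12 below 0. After centring it was -0.05, with 12 above and 15 below. Apart from Nup98, fold changes ran from -0.18 to 0.37 with standard errors of 0.09 to 0.27, and the smallest adjusted p was 0.656.

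**Figure D1:**
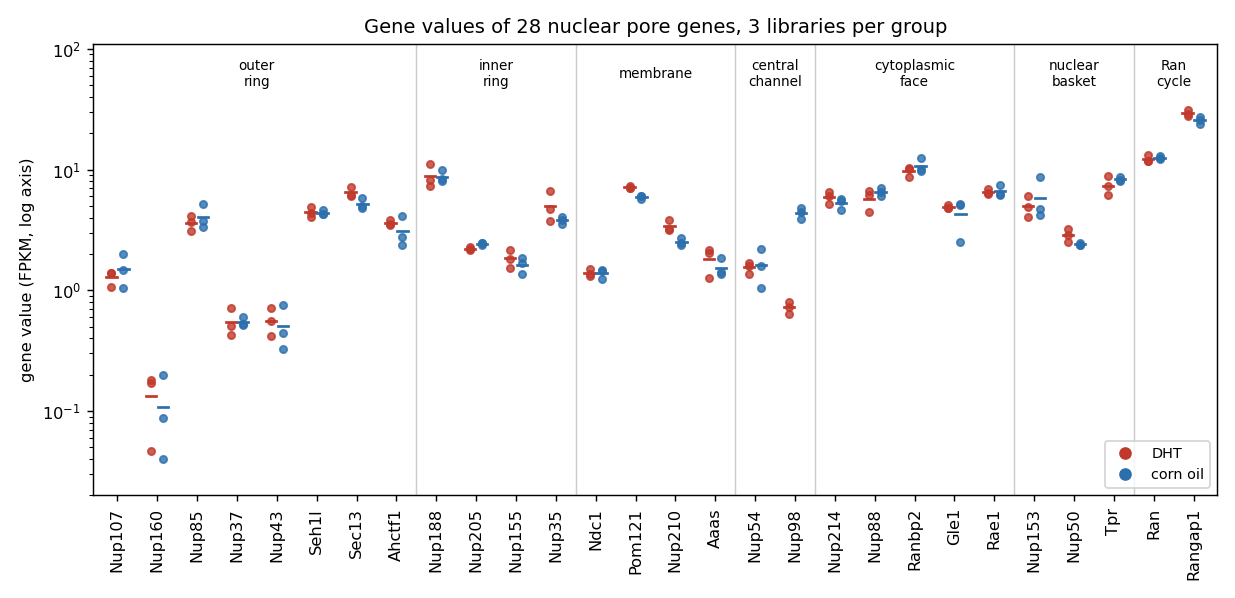
Gene values of the 28 members with events (FPKM, log axis), grouped by place in the pore; each dot is 1 library and each short line a group mean. The DHT and oil dots of Nup98 stand apart, at 0.631 to 0.801 and 3.87 to 4.84 FPKM, while most other members overlap.

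Levels of the members, per length, were spread widely. Rangap1 stood highest, with a mean of 27.5 FPKM over the 6 libraries, followed by Ran at 12.4, Ranbp2 at 10.2 and Nup188 at 8.81. At the low end were Nup37 at 0.547, Nup43 at 0.534 and Nup160 at 0.120 FPKM. The fullest event of a gene is its highest event, taken in each library separately, so it can differ between libraries. The Nup160 value was only 6.05% of its fullest event in DHT and 6.63% in oil, so it leaves out most of the signal at that locus. Of the 27 neighbouring pairs in this order, 3 had ranges that did not overlap: Rangap1 over Ran, Ndc1 over Nup37, and Nup43 over Nup160. The last of these turned round by the fullest event, which was 0.910 to 3.11 FPKM for Nup160 and 0.304 to 0.735 for Nup43. By gene value the other members form 1 graded series from 12.4 down to 1.39 FPKM in which neighbours were not separated by their spread. The order depends on the measure, as Nup188 had a mean of 6.04 FPKM by its fullest event and 1.65 by last-exon sums. Of the 28 members with events, 8 had a mean last-exon sum under 50% of the first-exon sum. For Rangap1 and Nup205 the last-exon sum was 0 in all libraries.

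In the outer ring, the Y-shaped scaffold, 7 members were tested and none passed the adjusted threshold. Sec13, a scaffold protein shared with the COPII coat of secretory vesicles, had 6.04, 7.23 and 6.21 FPKM in the DHT libraries and 5.78, 4.98 and 4.80 in oil. All 3 DHT libraries were above all 3 oil libraries, though DHT 1 and oil 1 lay close together. Its log2 fold change was 0.30 (SE 0.12, unadjusted p 0.0448, adjusted p 0.658 in limma). Nup107, Nup85, Nup37, Nup43, Seh1l and Ahctf1, the last of which tethers the Y complex to chromatin, had fold changes between -0.15 and 0.23 with overlapping groups.

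In the inner ring, 4 members were tested. Nup205, a large adaptor of the ring, had 2.19, 2.17 and 2.29 FPKM in DHT and 2.45, 2.39 and 2.45 in oil. Its groups did not overlap, but the step was small (log2 fold change -0.11, SE 0.10, adjusted p 0.790 in limma). Nup35, which links the ring to the membrane, had 3.73, 4.70 and 6.62 FPKM in DHT and 3.54, 3.86 and 4.04 in oil. DHT 3 was the highest and the groups overlapped. Nup155 and Nup188 also overlapped by gene value.

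The 4 membrane-layer members all had a log2 fold change above 0, as did 63.6% of all genes tested. Their fold changes ran from 0.01 for Ndc1 to 0.37 for Nup210. That of Ndc1 lay below 0 after centring and in some fits with 1 library left out. Nup210, a transmembrane protein of the pore's lumenal ring, had 3.84, 3.25 and 3.16 FPKM in DHT and 2.74, 2.45 and 2.38 in oil. Every DHT library lay above every oil library (log2 fold change 0.37, SE 0.12, unadjusted p 0.0172, adjusted p 0.656 in limma). Pom121, a transmembrane protein needed for pore assembly, had 7.04, 7.31 and 7.01 FPKM in DHT and 6.00, 6.10 and 5.70 in oil. These groups were also apart, with little spread inside each (log2 fold change 0.24, SE 0.09, unadjusted p 0.0341, adjusted p 0.658 in limma). Aaas, which Ndc1 anchors at the membrane, overlapped between the groups.

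By gene value, the groups of 7 members did not overlap. DHT was higher for 5 of them (Sec13, Pom121, Nup210, Nup50 and Rangap1), against 12% of all genes, and lower for 2 (Nup98 and Nup205), against 3.15%. For Sec13, Pom121 and Nup50 the fullest event equalled the gene value in every library, so it gives no second measure of them. By the fullest event of each library, Nup210, Rangap1, Nup98 and Nup205 overlapped. Nup155, which overlapped by gene value, was apart by it, at 2.14, 1.82 and 1.96 FPKM in DHT and 1.49, 1.74 and 1.68 in oil. The share of all genes without overlap was not computed for the fullest event.

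**Figure D2:**
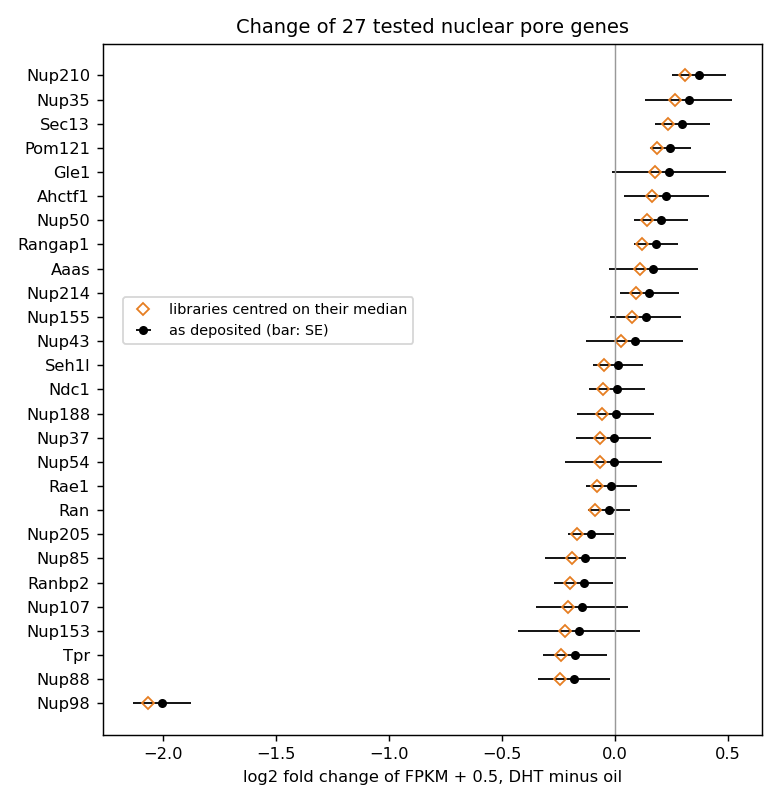
Log2 fold change of FPKM + 0.5 (DHT minus oil) for the 27 members tested; dots and bars give the deposited scale with its standard error, diamonds the fold change after centring each library on its median. Nup98 lies at -2.00, and the others between -0.18 and 0.37.

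In the central channel, Nup98 was the member that passed the test. Its gene encodes a precursor that is cleaved into Nup98, a channel protein that also binds mRNA export factors, and Nup96, a scaffold protein of the outer ring. The gene value was 0.631, 0.801 and 0.729 FPKM in DHT and 4.49, 4.84 and 3.87 in oil. In DHT library 1 it was the last-exon sum (first-exon sum 0.381 FPKM), and in the other libraries the first-exon sum. The groups were far apart (log2 fold change -2.00, SE 0.13, adjusted p 0.0163 in limma). The adjusted p was 0.161 without DHT library 1, 0.0806 without DHT library 3, 0.203 without oil library 1 and 0.0869 without oil library 2. With first-exon sums only, Nup98 was not called. Nup54, another channel protein, overlapped at 1.04 to 2.20 FPKM.

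The events inside Nup98 did not all follow this gene value. Its 2 upstream first exons together had 0.381, 0.801 and 0.729 FPKM in DHT and 4.49, 0.675 and 0.536 in oil, so only oil library 1 stood out. An internal first exon at chr7:102183463-102183565, 26611 bases further into the gene, was listed at 0 in all DHT libraries and in oil library 1, and at 4.17 and 3.33 FPKM in oil libraries 2 and 3. The oil libraries thus reached a like first-exon sum through different exons, and the share at the internal exon was 0%, 86.1% and 86.1% of that sum. First-exon use of Nup98 did not pass its test.

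Further into the gene the contrast was smaller. An exon at chr7:102169363-102169503 was included at 1.92, 2.07 and 2.81 FPKM in DHT and 4.49, 4.81 and 5.41 in oil, again with no overlap (log2 fold change -0.97, SE 0.17, unadjusted p 0.00116, adjusted p 0.459 in limma). Near the 3′ side, an intron's retained and spliced forms summed to 3.35, 3.95 and 4.19 FPKM in DHT and 4.31, 4.13 and 4.88 in oil, and the groups overlapped. The fullest event of each library, which need not be the same event, was also used in place of the gene value. The log2 fold change was then -0.39 (SE 0.15, adjusted p 0.670 in limma). The gene value was 19.1% of the fullest event in DHT and 87.4% in oil. Nup98 was the only tested member under 50% in DHT, as were 0.150% of all 11368 genes. By library, the fullest event was 3.06, 3.71 and 4.52 FPKM in DHT and 4.49, 5.21 and 5.41 in oil, and DHT library 3 overlapped oil library 1. Last-exon sums were low in both groups, at 0.149 to 0.631 FPKM in DHT and 0.0691 to 0.230 in oil. A failed estimate of the first exons was not tested.

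**Figure D3:**
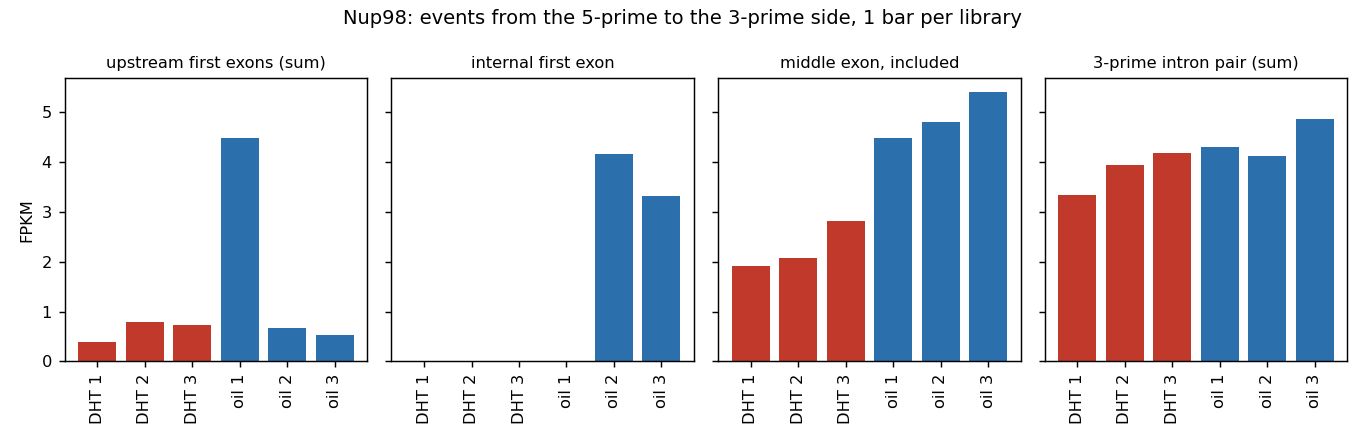
FPKM of Nup98 events in each library, from the 5′ to the 3′ side: summed upstream first exons, internal first exon, included middle exon, and an intron near the 3′ side (retained plus spliced); red bars are DHT, blue bars oil. The oil libraries reach 3.33 to 4.49 FPKM at different first exons, and the groups draw together toward the 3′ side.

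On the cytoplasmic face, where exported mRNA is released, the gene values of all 5 members overlapped between the groups. Nup214, a docking site for export receptors, had gene values of 5.21, 6.06 and 6.57 FPKM in DHT and 5.50, 5.73 and 4.67 in oil. Its first exons stood further apart. An internal first exon at chr2:32010269-32010365, 35833 bases after the upstream start, had 1.67, 2.25 and 2.45 FPKM in DHT and 0.0485, 0.0485 and 0.0487 in oil. It made up 46.7% ± 7.66 of the first-exon sum in DHT and 2.36% ± 0.556 in oil (SD, n = 3 each). All DHT libraries were above 41% and all oil libraries under 3%. The oil values of this exon were nearly equal and near the floor, and a failed estimate of it was not tested. Over 12984 first exons none passed the adjusted threshold, and 5.28% had an unadjusted p under 0.05. For this exon the log2 difference in use was 2.05 (SE 0.34, unadjusted p 9.48e-04, adjusted p 0.440 in limma), and its FPKM had a log2 fold change of 2.25 (SE 0.24, unadjusted p 9.43e-05, adjusted p 0.126).

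Other events on either side of this exon were read with it. An exon before the internal start was included at 2.03, 2.23 and 3.00 FPKM in DHT and 4.84, 4.68 and 3.45 in oil, lower in every DHT library (log2 fold change -0.72, SE 0.20, adjusted p 0.797 in limma). That exon and the internal first exon summed to 3.71, 4.47 and 5.45 FPKM in DHT and 4.89, 4.72 and 3.49 in oil, with overlap. The upstream first exon overlapped too, at 1.34, 2.93 and 3.48 against 2.74, 1.67 and 1.88 FPKM. An intron after the internal start was spliced at 4.55, 5.07 and 4.79 FPKM in DHT and 4.84, 4.26 and 3.45 in oil. At the other end, 1 of 9 member last exons tested, in Nup214, had an unadjusted p under 0.05 (log2 difference in use -0.65, SE 0.25, unadjusted p 0.0432, adjusted p 0.873 in limma), against 4.91% of all last exons.

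**Figure D4:**
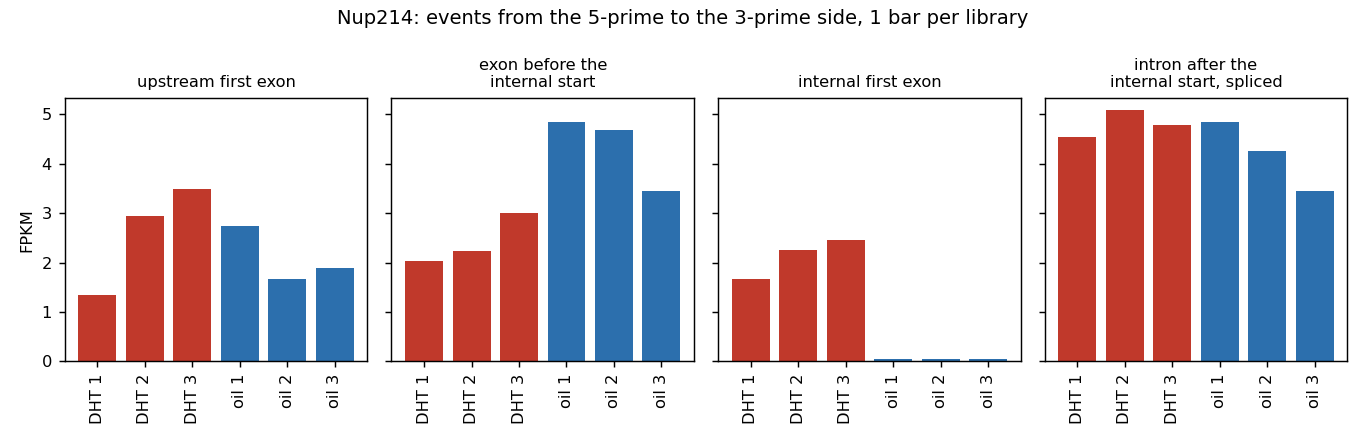
FPKM of Nup214 events in each library, from the 5′ to the 3′ side: upstream first exon, the exon before the internal start, the internal first exon, and an intron after it; red bars are DHT, blue bars oil. The internal first exon is at 1.67 to 2.45 FPKM in DHT and near 0.05 in oil, while the upstream first exon and the later intron overlap.

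Ranbp2, the large SUMO ligase of the cytoplasmic filaments, was read by the same measure. Its shorter first exon made up 100% of the first-exon sum in each DHT library and 74.1%, 89.3% and 81.2% in oil. The remainder in oil libraries 1 and 3 was a form of the same exon whose end lay 485 bases further on, and in oil library 2 a separate first exon (log2 difference in use 2.41, SE 0.40, unadjusted p 9.45e-04, adjusted p 0.440 in limma). Nup88, a partner of Nup214, had an exon that began at either of 2 sites 15 bases apart. The longer form was 67.5%, 65.3% and 77.1% of both in DHT and 37.5%, 7.79% and 27.6% in oil, without overlap. This pair was chosen after its values were seen, and its share is a description with no test. As single events, neither form passed the adjusted threshold (adjusted p 0.797 for each in limma). Gle1, an activator of mRNA release, stood at 4.78 to 5.14 FPKM in DHT and at 5.18, 5.12 and 2.50 in oil, so oil library 3 was low alone. Rae1, an mRNA export factor that binds Nup98, had 6.11 to 7.43 FPKM with overlap.

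In the scaffold, Nup85 and Nup188 had further differences within the gene. The 5′-most, shorter first exon of Nup85 made up 49.2% ± 4.81 of its first-exon sum in DHT and 29.4% ± 2.94 in oil (SD, n = 3 each), without overlap (log2 difference in use 0.96, SE 0.28, unadjusted p 0.0154, adjusted p 0.881 in limma). A pair of neighbouring Nup188 exons was included at 6.43, 5.34 and 9.45 FPKM in DHT and 2.11, 1.25 and 2.08 in oil. Every DHT library exceeded every oil library (log2 fold change 1.70, SE 0.27, unadjusted p 6.85e-04, adjusted p 0.354 in limma). The form that skips the pair was under 1 FPKM in every library, and the gene value of Nup188 overlapped.

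**Figure D5:**
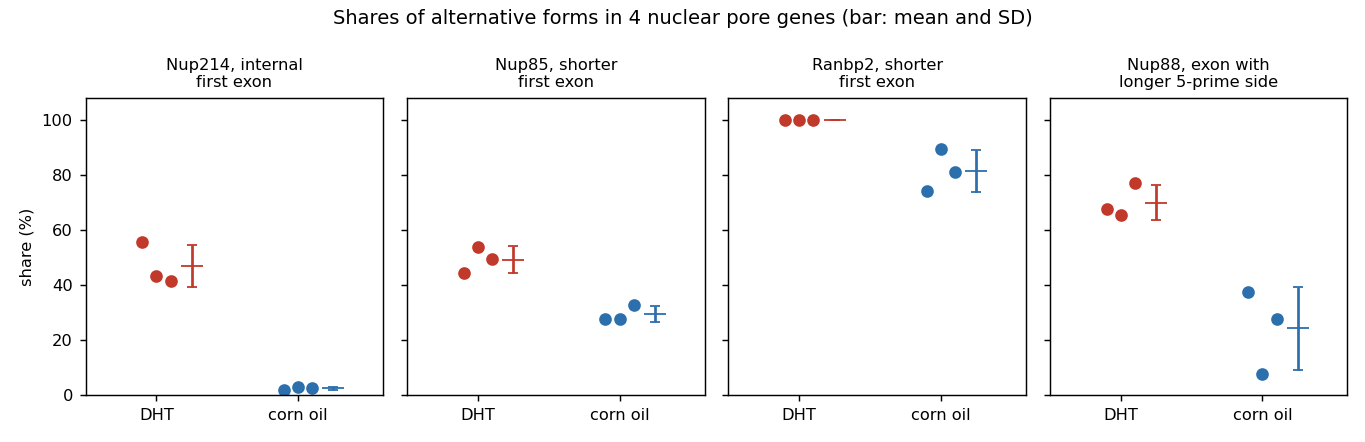
Share (%) of 1 form in each library for Nup214 (internal first exon), Nup85 and Ranbp2 (shorter first exon) and Nup88 (exon with the longer 5′ side); bars give the mean and SD of 3 libraries. DHT libraries lie above oil libraries in each panel, with no first-exon share past the adjusted threshold. The forms shown were chosen after their values were seen, so their shared direction is no result. The main first-exon share of Rangap1, not shown, was lower in DHT, at 91.0% to 95.9% against 97.0% to 98.3% in oil.

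Of 35 member first exons tested for use, in 21 genes, 5 had an unadjusted p under 0.05, against 5.28% of all first exons: 2 of Nup214 and 1 each of Ranbp2, Nup85 and Rangap1. The 2 of Nup214 are opposite sides of nearly the same ratio, so the 5 stand for 4 differences. Of 212 member events of any type tested, in 26 genes, none passed the adjusted threshold, against 0.041% of all 78085 events. At an unadjusted p under 0.05 there were 23 in 7 genes, against 5.98% of all events. Many of these share exons and values, so they are not independent.

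In the nuclear basket, which faces the chromatin, Nup50 had 2.88, 2.50 and 3.21 FPKM in DHT and 2.38, 2.46 and 2.39 in oil, apart by a narrow margin (adjusted p 0.701 in limma). Tpr, the protein that forms the basket's filaments, and Nup153, which anchors it, overlapped. In the Ran cycle, Ran had 11.9, 13.1 and 11.9 FPKM in DHT and 12.9, 12.2 and 12.5 in oil, with overlap and a log2 fold change of -0.03 (SE 0.09). Rangap1, the GTPase activator of Ran, had 31.1, 28.6 and 28.1 FPKM in DHT and 27.5, 25.8 and 24.0 in oil, without overlap (log2 fold change 0.18, SE 0.10, adjusted p 0.685 in limma). Its main first exon made up 93.9% ± 2.54 of the first-exon sum in DHT and 97.8% ± 0.713 in oil (SD, n = 3 each; unadjusted p 0.0444, adjusted p 0.925 in limma).

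The pathway around the pore was read from 3 lists by the same fit. The first list held 10 symbols of further nucleoporins and associated proteins, some of which name the same gene. Of these 5 were tested, 2 above and 3 below 0, and none was called. Of 30 transport receptors and Ran regulators, 26 were tested, with 17 above and 9 below 0 and none called. Ranbp3, a cofactor of nuclear export, had a log2 fold change of 0.25 (SE 0.10, adjusted p 0.658 in limma), and the import receptor Tnpo2 one of 0.38 (SE 0.15, adjusted p 0.658). After centring, 10 of the 26 were above 0. Of 20 genes of the nuclear envelope and lamina, 16 were tested, with 8 on either side of 0 and none called. Medians of the 3 lists were -0.09, 0.01 and 0.00, against 0.07 over all genes.

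Circular RNAs of these genes were sparse. The 22 circles, all exonic, came from 11 genes and held 94 of 286240 junction reads. Of them 19 (86.4%) were listed in a single library, against 47.8% of all circRNAs, and a circle is listed only at 2 reads or more. Member circles held 21, 26 and 12 reads in the DHT libraries and 22, 4 and 9 in oil, so oil library 2 was lowest and the groups overlapped. Nup98 hosted 5 circles with 16 reads, Ranbp2 and Nup133 hosted 3 each, and 21 members hosted none.

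One circle reached 20 reads. It lay in Tpr at chr1:150406462-150407577, with 4, 11 and 2 reads in DHT and 0, 4 and 2 in oil. It was listed in 5 libraries, most often in DHT library 2. Its log2 fold change in edgeR's quasi-likelihood test was 1.31 (SE 1.32, adjusted p 0.996). None of 2524 tested circRNAs was called by edgeR or by DESeq2, and 79 of them (3.13%) had an unadjusted p under 0.05 in edgeR and 73 in DESeq2. The other 21 member circles held fewer than 20 reads and were not tested. With a minimum of 6 reads, 3 member circles were among the 5972 tested and none was called.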

How the data were processed

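RNA of hippocampus, as labelled, was measured in 6 libraries grouped by the treatment label. FPKM values per first-exon, last-exon and splicing event were deposited by the authors, per the file headers. Back-splice junction read counts per circRNA, and linear read counts at each, were deposited by the authors, with circRNAs under 2 reads unlisted and taken as 0. The deposited score (SRPBM) is junction reads per mapped reads, per the labels' protocols, and gave the mapped reads of each library. BWA, HISAT2 2.0.1, cutadapt and bcl2fastq 2.17.1.14 appear in the submitters' processing notes, with assembler and circRNA caller not given in the sources used here. These notes name mm9, yet 99.2% of 11461 circRNAs lay within their host gene's GRCm38 bounds, as did all 22 member circles, so coordinates are read as GRCm38. Without stated strand, overlapping genes cannot be told apart.

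Gene values, first-exon and last-exon use (log2 ratio to the locus's other first or last exons) and event values were compared with limma 3.58.1 in R 4.3.3, with 0.5 FPKM added and a minimum mean of 0.5 FPKM. Circles with at least 20 reads were compared with edgeR 4.0.16 and, as an alternative, DESeq2 1.42.0. Tests were two-sided, adjusted by Benjamini-Hochberg over all features, with a threshold of 0.05, and the scripts were tested on simulated data. Tables were joined with pandas 2.3.3. FPKM files state no counts, so the depth behind each FPKM value is unknown.

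All 32 genes are accounted for by place. Folds with tests are printed for members with an unadjusted p under 0.05 in the gene fit, for at most 10 member events per fit by the same threshold, for the circles with the smallest p, and for up to 3 genes of each pathway list; other members whose groups did not overlap were added after their values were seen. Alternatives covered pseudocounts, filters, the definition of the gene value, centring, scaling of counts and leaving out each library. Members and lists were chosen with earlier results of these data known. Form shares, the comparison of the gene value with the fullest event and the motif list were added after values were seen.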

Additional observations from a re-analysis of the deposited data

How the results depend on the processing

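Of all genes, 2 were called in the main comparison and 1 with a pseudocount of 0.1 or a minimum mean of 2 FPKM. With first-exon sums, last-exon sums or the fullest event of each library, 0 were called. Leaving out 1 library gave 0 to 4. The number of nuclear pore genes called, 1 in the main comparison, was 0 with first-exon sums, last-exon sums or the fullest event. It was 0 to 1 with 1 library left out. Nup98 kept its direction in every alternative fitted, at a log2 fold change of -2.08 to -1.94 with 1 library left out (adjusted p 0.0308 to 0.203 in limma). It was -2.12 with first-exon sums only (adjusted p 0.138) and -0.39 with the fullest event of each library (adjusted p 0.670). By last-exon sums only, Nup98 fell under the 0.5 FPKM filter and was not fitted. Its mean last-exon sum was higher in DHT, at 0.457 FPKM against 0.143 in oil, with overlap. The cause was not tested.

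Of all events, 32 were called in the main comparison, 10 with a minimum mean of 2 FPKM, and 5 to 24 with 1 library left out. First-exon use gave 0 calls, and 2 with a pseudocount of 1. Last-exon use gave 0, then 3 with a pseudocount of 0.1 and 0 to 2 with 1 library left out. Of the circRNAs 0 were called, 6 with a minimum of 6 reads and 0 to 1 with 1 library left out. No nuclear pore event, first exon, last exon or circle was called in these alternatives. The 4 gene values with an unadjusted p under 0.05 and the Tpr circle kept their direction wherever they were fitted. So did the named events and exons with a printed test, except the Nup88 forms, which were not part of this check. Of the other 23 nuclear pore genes tested, 13 changed sign in at least 1 alternative, 11 with 1 library left out (Gle1, Ndc1, Nup107, Nup153, Nup188, Nup37, Nup43, Nup54, Nup85, Rae1 and Seh1l) and 3 after centring (Ndc1, Nup188 and Seh1l). The internal first exon of Nup214 had a log2 fold change of 2.15 to 2.38 with 1 library left out, and an adjusted p of 0.126 to 0.221. No paired analysis was possible because the labels give the groups no shared replicate numbers, and the numbers 1 to 3 used here only name the libraries.

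With 3 libraries a group the standard errors of 0.09 to 0.27 limit what gene values can show, and 21 of the 22 circles held too few reads to enter the comparison.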

Other observations

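An internal first exon of Nup153, which anchors the nuclear basket, had 2.50, 0.445 and 0.255 FPKM in the DHT libraries and 5.74, 0.532 and 0 in oil. DHT library 1 and oil library 1 were the highest, and the share of the first-exon sum ran from 0% to 66.6%. The groups overlapped.

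Linear reads at the Nup98 circles, with a counting method that no label or header states, were 196 and 274 at 2 circles listed in DHT library 1 and 119 at the circle listed in DHT library 3. They were 212 at the circle listed in oil library 1 and 202 at the circle listed in oil library 3. Each circle has its own position and was listed in 1 library, so no circle allows a comparison of the groups.

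Inside the bounds of Nup93 lay 27 events that carry the identifier of another gene, C78859, on the plus strand, with means of 0.0128 to 5.82 FPKM. They were not counted as Nup93. Nup133, without any event, still hosted 3 circles, with 2 reads in DHT library 1 and 7 in oil library 1.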
